A study of Mus musculus with 24 samples.

Results

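Messenger RNA of 41 complement and coagulation genes was measured in mouse liver in 2 count tables of 12 livers each, one from p16-3MR mice and one from wild-type (WT) mice. The 41 genes were taken by name, with earlier results of these data known but with no measured value in the rule, and cover recognition proteases, convertase components, the terminal pathway and regulators of complement, together with clotting factors, the contact system, fibrinogen, anticoagulants and fibrinolysis. All 41 were found among the 21755 genes of the p16-3MR table. The gene labels of the WT table lack 9 lower-case letters, so that only labels matching a single symbol could be used, and 16 of the 41 members remained among 12643 labels: C1ra, C8a, C9, Cfi, C4bp, Vtn, F10, F11, F12, F13b, Kng2, Proz, Serpina10, Serpinc1, Serpind1 and Serpinf2. The other 25 share a label with other genes and are not analysed here for WT. C6, for example, has the same label there as Cln6 and Cog6.

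Each table holds 4 groups of 3 livers: females (F) and males (M), treated with ganciclovir (GCV) or with vehicle (VEH). GCV was injected into the peritoneum on 5 consecutive days of each month at 150 mg per kg according to the sample labels (the dose in the published methods differs), and VEH mice received the pH 11 water in which the drug was dissolved. The p16-3MR mouse carries a transgene in which the p16Ink4a promoter drives a reporter fusion that includes a viral thymidine kinase, and this kinase turns GCV into a toxic product, so that cells with an active promoter can be removed. All p16-3MR mice carried the transgene, VEH mice included, and the model reaches only cells in which that promoter is active. Treatment began at 16 to 18 months of age in p16-3MR mice. WT mice lack the kinase, started at 6 months and were collected after 3 months, although the labels also call them age-matched. Genotype, batch (numbered in the labels without saying of what), age and treatment length therefore cannot be told apart, and the tables were analysed separately with no test between them. Each library is 1 liver, numbered in the labels, and p-values measure the spread between these livers.

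The liver makes most of the complement and clotting proteins of the blood plasma, and hepatocytes secrete the bulk of them. In complement, recognition molecules activate serine proteases that assemble C3 convertases, C3 cleavage leads to C5 cleavage, and C5b, C6, C7, C8 and several copies of C9 form the membrane attack complex that perforates membranes. In coagulation, zymogen proteases activate one another until thrombin converts fibrinogen into fibrin, which antithrombin and protein C restrain and plasmin dissolves. Adult mouse liver is a tissue with many sex-biased genes, largely set by the different pattern of growth hormone release in males and females.

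Total counts were 5005760 to 7160172 in p16-3MR livers and 3084517 to 5667904 in WT livers, and levels are given throughout as CPM, counts scaled to a common library total after TMM scaling. On that scale 3 counts corresponded to 0.293 to 2.32 CPM in p16-3MR livers, highest in F GCV 33, and to 0.516 to 0.943 CPM in WT livers. The lowest member count in any p16-3MR liver was 4 (Pros1 in F GCV 33) and in any WT liver 90 (F11). The biological coefficient of variation was 55.8% in the p16-3MR table and 16.6% in the WT table. In p16-3MR mice 3 livers stood apart. F GCV 33 had 64.0% of its counts in mitochondrial genes against 12.3 to 22.4% in the other livers. M GCV 32 was the lowest of the 12 livers for 29 of 41 members, and its summed level of 10 hepatocyte markers was 24000 CPM, with 39000 in M VEH 24 and 77100 to 160000 in the other 10 livers. Every female, at 86200 to 160000 CPM, lay above every male, at 24000 to 86000 CPM, for this sum. The sum of 8 Kupffer cell and macrophage markers was 3520 CPM in M GCV 32 and 2120 in M VEH 24, against 126 to 1120 elsewhere. Sums of stellate cell markers (1430 and 602 CPM against 210 to 488) and of sinusoidal endothelial markers (479 and 299 against 115 to 251) were likewise highest in these 2 livers. In bulk tissue, fewer cells of a type and less RNA per cell cannot be told apart. The sex differences of C6, C8a, C8b and C9 and several GCV values are given also without one or more of them. In WT livers, where 2 of the 10 hepatocyte markers could be used, their sum was 9600 to 12000 CPM. The sum of the 3 acute-phase genes that could be used there, of 8, was 6250 CPM in M VEH 1 and 4660 in M GCV 1, against 1100 to 2650 in the other 10 WT livers (1880 to 2650 in females), and M VEH 1 was the highest liver for 7 of 16 members.

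The first comparison asked whether the sexes differed over both treatments. In WT mice 5 of 16 members passed the test (edgeR's quasi-likelihood test, adjusted p below 0.05), 4 lower and 1 higher in females, while 7.94% of all genes passed, 4.05% lower and 3.89% higher. Among the members called, the terminal pathway genes C8a and C9 had the largest differences, followed by the regulator C4bp, the contact factor Kng2 and the protease C1ra. DESeq2 also called 5 (8.15% of all genes), and at an unadjusted p below 0.05 there were 9 of 16 (20.1%). Between the 6 females and the 6 males 5 members did not overlap, against 4.77% of all genes. Of the 16 members 9 were above 0 (53.5% of all genes were), and their median log2 difference was 0.06 against 0.03 for all genes, or 0.03 without M GCV 2 and 0.10 without M VEH 1. In p16-3MR mice 1 of 41 members passed, C6, which was lower in females, against 0.303% of all genes (0.115% lower). DESeq2 called 4 members (0.919% of all genes): C6, C8a and C8b lower and F11 higher in females. At an unadjusted p below 0.05 there were 5 members of 41 and 7.05% of all genes, and 0 members were without overlap between the sexes (0.616% of all genes).

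**Figure D1:**
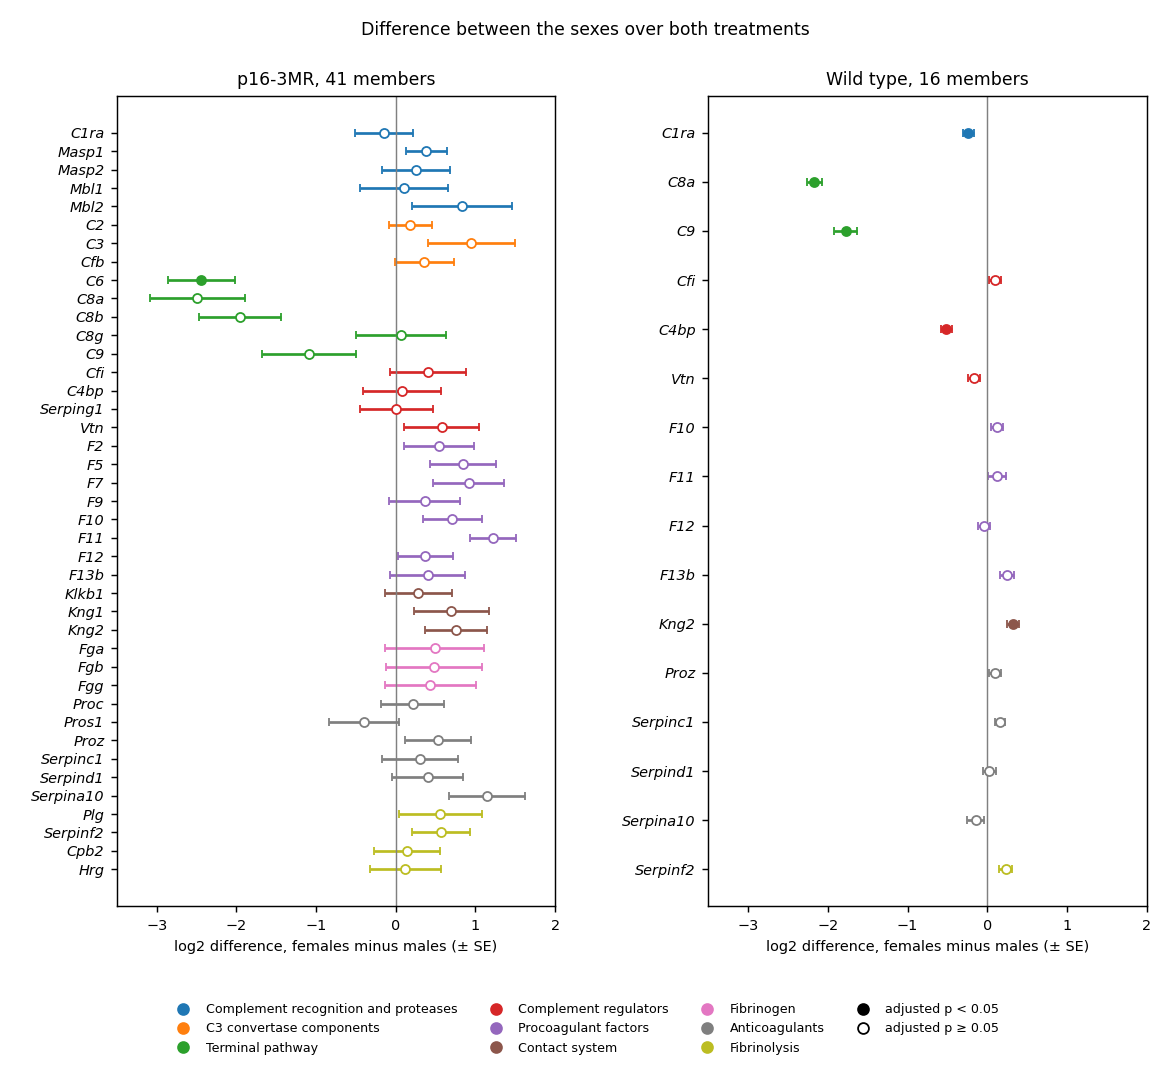
Log2 difference between females and males over both treatments (horizontal axis) for each member, ordered and coloured by role, with bars of 1 standard error (SE) from the edgeR fit and filled points for called members, in p16-3MR mice (41 members) and in WT mice (16 members). C8a lies at -2.49 in p16-3MR and at -2.17 in WT, C6 at -2.44 in p16-3MR, and most other members lie within about 1 unit of 0.

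The terminal pathway members build the pore of the membrane attack complex. C8a encodes the alpha chain of C8. In WT females it was at 109, 98.4 and 87.2 CPM with GCV (replicates 4, 5 and 6) and 101, 86.0 and 84.6 CPM with VEH. WT males had 490, 391 and 443 CPM with GCV (replicates 1, 2 and 3) and 500, 376 and 353 CPM with VEH. Every WT female lay below every WT male, whatever the treatment. The log2 difference was -2.17 (SE 0.10), a level 4.50-fold lower in females (edgeR adjusted p = 3.28e-13).

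C9 encodes the subunit that polymerises into the pore. Its level in WT females was 203, 207 and 180 CPM with GCV and 165, 223 and 141 CPM with VEH. In WT males it was 745, 477 and 723 CPM with GCV and 865, 512 and 510 CPM with VEH. The sexes did not overlap, and males were more spread out than females, with replicate 2 low in GCV and replicates 2 and 3 low in VEH. C9 was 3.43-fold lower in females (log2 difference -1.78, SE 0.14, edgeR adjusted p = 5.91e-09). For C8a and C9 the highest male was M VEH 1, which with M GCV 1 had the high acute-phase sums, and the other 4 males also lay above every female. The acute-phase genes Saa2 and Lcn2 were called lower in WT females as well, at -5.94 (edgeR adjusted p = 0.000493) and -3.36 (adjusted p = 0.00825), whereas Hamp, the third that could be used, was called higher at 0.80 (adjusted p = 0.000453), and their part in the differences of C8a and C9 was not tested.

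C6 (ENSMUSG00000022181), the first protein to bind C5b, could be read only in the p16-3MR table. Females had 22.6, 9.27 and 6.71 CPM with GCV (mice 31, 33 and 35) and 14.9, 38.2 and 16.1 CPM with VEH (mice 27, 28 and 29). Males had 81.9, 23.0 and 93.7 CPM with GCV (mice 30, 32 and 34) and 120, 148 and 134 CPM with VEH (mice 24, 25 and 26). F VEH 28 was above M GCV 32, and without M GCV 32 every female lay below every male. The log2 difference was -2.44 (SE 0.42), 5.43-fold lower in females (edgeR adjusted p = 0.0190, DESeq2 adjusted p = 1.73e-06). The edgeR call was lost in 6 of the 12 fits that left out 1 liver (F GCV 33, F GCV 35, F VEH 27, F VEH 29, M GCV 30 or M VEH 25), with adjusted p from 0.00178 to 0.0828 over the 12.

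The C8 genes of p16-3MR mice did not pass edgeR's threshold. C8a (ENSMUSG00000035031) was at 128, 49.4 and 68.6 CPM in GCV females and 30.4, 274 and 66.2 CPM in VEH females. In GCV males it was at 695, 121 and 954 CPM and in VEH males at 308, 592 and 728 CPM. M GCV 32 alone among males lay within the female range. The log2 difference was -2.49 (SE 0.60, edgeR adjusted p = 0.200, DESeq2 adjusted p = 0.00178).

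C8b (ENSMUSG00000029656) encodes the beta chain of C8. It was at 35.9, 43.3 and 68.6 CPM in GCV females and 16.1, 67.6 and 44.7 CPM in VEH females. It was at 158, 26.9 and 278 CPM in GCV males and 99.0, 283 and 238 CPM in VEH males. Again only M GCV 32 fell within the female range. The log2 difference was -1.96 (SE 0.52, edgeR adjusted p = 0.295, DESeq2 adjusted p = 0.0164).

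C9 (ENSMUSG00000022149) was at 341, 17.0 and 265 CPM in GCV females and 164, 235 and 313 CPM in VEH females of the p16-3MR table. In GCV males it was at 628, 117 and 869 CPM and in VEH males at 335, 478 and 433 CPM. Here M GCV 32 and M VEH 24 reached into the female range, and the log2 difference was -1.09 (SE 0.59, edgeR adjusted p = 0.698). C8g, the third chain of C8 and a lipocalin unrelated in sequence to the other chains, had a log2 difference of 0.06 (SE 0.57), with 54.8 to 245 CPM in females and 19.3 to 344 CPM in males.

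Leaving out livers changed the p16-3MR result, as an alternative chosen after the data were seen. Without M GCV 32, C6, C8a and C8b were lower in every female than in every male, as were 0.515% of all genes. Without F GCV 33, M GCV 32 and M VEH 24 these 3 and C9 did not overlap on the lower side, against 1.16% of all genes. The edgeR fit then called 3 members (0.818% of all genes), C6 at -2.62 (adjusted p = 0.000545), C8a at -2.76 (adjusted p = 0.00879) and C8b at -2.34 (adjusted p = 0.00238), while C9 at -1.13 had an adjusted p of 0.0732. With only F GCV 33 and M GCV 32 left out, edgeR called 1 member (0.391% of all genes). Hepatocyte markers were low in M GCV 32 and M VEH 24, as given above.

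As a measure within each liver, the mean log2 CPM of all 5 terminal members was taken relative to the mean of the other 36 members of the same liver. In p16-3MR females it was -2.78, -3.10 and -2.79 with GCV and -3.32, -2.38 and -2.45 with VEH. In males it was -0.94, -1.52 and -0.55 with GCV and -0.72, -0.33 and -0.64 with VEH. The sexes did not overlap, M GCV 32 included, although that liver was the lowest male. With the 2 terminal members of the WT table relative to the other 14, females ranged from -1.44 to -0.94 (median -1.13) and males from 0.64 to 1.06 (median 0.84). These values are a description, since the role was singled out with the results known.

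**Figure D2:**
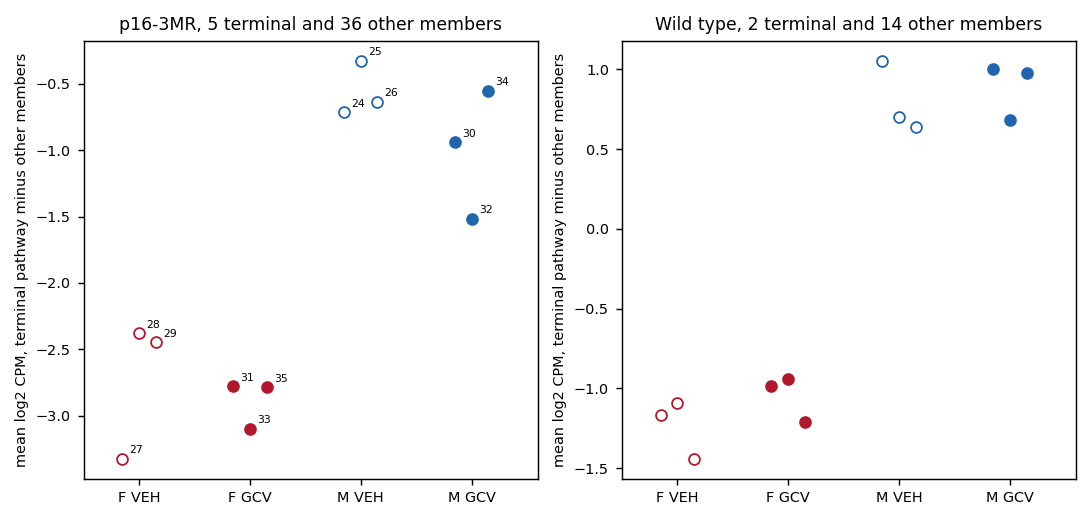
Mean log2 CPM of the terminal pathway members minus that of the other members in the same liver (vertical axis), one point per liver, by sex and treatment, for p16-3MR (5 members against 36) and WT (2 against 14). Females lie below males in both tables without overlap, from -3.32 to -2.38 against -1.52 to -0.33 in p16-3MR and from -1.44 to -0.94 against 0.64 to 1.06 in WT.

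The summed level of 6 male-biased liver genes (Mup20, Elovl3, Hsd3b5, Cyp2d9, Cyp4a12a and Cyp7b1) was 16900 to 20600 CPM in WT males and 161 to 230 CPM in WT females. In p16-3MR males it was 524, 84.9 and 2660 CPM with GCV and 2840, 12500 and 7410 CPM with VEH, and in females 16.2 to 62.5 CPM. M GCV 30, with a sum of 524 CPM, had C8a at 695 CPM and C6 at 81.9 CPM, above every female, and M GCV 32, with the lowest male sum of 84.9 CPM, had C8a at 121 CPM and C6 at 23.0 CPM, the lowest of the males. The labelled sexes were thus separated by these markers in both tables, and their part in the differences of the terminal genes was not tested.

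C6 and C9 lie on chromosome 15 and C8a and C8b side by side on chromosome 4. In mm10 (GRCm38, GENCODE M21), C6 spans chr15:4727175-4814967 and C9 chr15:6445327-6498751, both on the plus strand. C8a spans chr4:104815679-104876398 on the minus strand and C8b chr4:104766317-104804548 on the plus strand. C4bp, a binding protein for C4b described next, spans chr1:130634773-130661632 on the minus strand. Upstream sequence is shown for these 5 genes because C6, C8a, C8b and C9 are the terminal members with lower levels in females and C4bp had the largest difference after C8a and C9 in WT. The RefSeq promoters (GRCm38.p6, 32 of 41 members matched) are printed from base -250 to -51 before the start given by RefSeq, which is not in every case the GENCODE gene start above, 5′ to 3′ on the strand of the gene, with capitals for motif matches. The motifs searched on both strands were GTTAAT (HNF1 half-site), TTGCNNAA (C/EBP), TTCNNNGAA (STAT5) and TGTTTAC (FOXA), and no matches overlapped in the sequences printed.
C6, chr15:4726960-4727159, plus strand: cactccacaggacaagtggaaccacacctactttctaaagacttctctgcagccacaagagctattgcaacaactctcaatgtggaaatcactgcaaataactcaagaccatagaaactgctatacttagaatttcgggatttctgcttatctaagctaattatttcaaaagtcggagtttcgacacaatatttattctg
C8a, chr4:104876449-104876648, minus strand: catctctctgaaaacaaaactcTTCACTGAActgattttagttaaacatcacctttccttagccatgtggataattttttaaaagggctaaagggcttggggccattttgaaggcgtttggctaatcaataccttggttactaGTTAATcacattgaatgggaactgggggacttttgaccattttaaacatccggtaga
C8b, chr4:104766067-104766266, plus strand: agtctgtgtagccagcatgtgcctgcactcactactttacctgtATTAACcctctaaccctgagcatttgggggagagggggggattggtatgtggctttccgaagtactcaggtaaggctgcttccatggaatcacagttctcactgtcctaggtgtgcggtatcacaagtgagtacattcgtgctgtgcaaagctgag
C9, chr15:6445096-6445295, plus strand: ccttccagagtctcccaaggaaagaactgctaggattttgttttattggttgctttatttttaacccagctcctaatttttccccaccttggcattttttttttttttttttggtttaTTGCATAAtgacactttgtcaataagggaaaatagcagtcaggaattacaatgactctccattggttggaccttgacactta
C4bp, chr1:130661669-130661868, minus strand: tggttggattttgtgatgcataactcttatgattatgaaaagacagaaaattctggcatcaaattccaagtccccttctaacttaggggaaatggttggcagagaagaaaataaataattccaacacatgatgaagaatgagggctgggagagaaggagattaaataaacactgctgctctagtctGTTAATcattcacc

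The C8a sequence held a STAT5 match at -228 to -220 and a GTTAAT at -107 to -102, C8b held the reverse complement of GTTAAT at -206 to -201, C9 a C/EBP match at -132 to -125 and C4bp a GTTAAT at -64 to -59. C6 held none of the 4 in this window. Of all 32851 promoters of the same length, 5.33% held the HNF1 half-site, 8.11% the C/EBP, 5.76% the STAT5 and 2.58% the FOXA letters. Among the 33 promoter entries of members these were 6, 6, 5 and 0. A match describes letters only.

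Among complement regulators, C4bp encodes the alpha chain of the C4b-binding protein, which speeds decay of the classical C3 convertase. WT females had 187, 182 and 193 CPM with GCV and 191, 207 and 206 CPM with VEH. WT males had 288, 259 and 274 CPM with GCV and 291, 270 and 283 CPM with VEH. The sexes did not overlap and the livers of each sex lay close together, so that a 1.43-fold lower level in females passed the test (log2 difference -0.52, SE 0.07, edgeR adjusted p = 1.52e-05). In p16-3MR mice the log2 difference of C4bp was 0.08. Vtn (vitronectin, an inhibitor of the attack complex) was at -0.17 (SE 0.08, edgeR adjusted p = 0.210) in WT, or -0.10 without M VEH 1, and 0.58 in p16-3MR, and Cfi, the protease that cleaves C3b and C4b, at 0.10 and 0.40. Serping1, the C1 inhibitor, was at 0.01 in p16-3MR.

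Of the recognition and initiating proteases, C1ra encodes a C1r protease of the C1 complex. WT females had 199, 193 and 190 CPM with GCV and 196, 202 and 205 CPM with VEH. WT males had 239, 227 and 230 CPM with GCV and 247, 233 and 219 CPM with VEH. The highest female lay below the lowest male. C1ra was 1.18-fold lower in females (log2 difference -0.24, SE 0.07, edgeR adjusted p = 0.0308), a call that was kept without M GCV 2, M GCV 3 or M VEH 3 and lost without any other liver (adjusted p 0.0317 to 0.0795 over the 12 fits). The gene has a close paralog, C1rb, with which its reads may be shared. In p16-3MR mice C1ra was at -0.15 on the log2 scale, the lectin pathway proteases Masp1 and Masp2 at 0.38 and 0.26, and the mannose-binding lectins Mbl1 and Mbl2 at 0.10 and 0.83, with none past the threshold.

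Of the convertase components, measured only in p16-3MR mice, C3 had a log2 difference of 0.95, Cfb (factor B) 0.36 and C2 0.18, with none past the threshold. C3, the central protein on which all activation routes meet, was at 9710, 5660 and 9760 CPM in GCV females and 10600, 19000 and 8810 CPM in VEH females. It was at 8620, 2480 and 6990 CPM in GCV males and 3850, 4510 and 6010 CPM in VEH males. VEH females lay above VEH males, whereas GCV females overlapped GCV males through F GCV 33.

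Kng2 encodes a kininogen, the high-molecular-weight form of which carries plasma prekallikrein and factor XI and releases bradykinin. WT females had 242, 211 and 227 CPM with GCV and 221, 229 and 256 CPM with VEH. WT males had 189, 169 and 175 CPM with GCV and 204, 188 and 182 CPM with VEH. All females were above all males, and Kng2 was the single member called higher in WT females (1.25-fold, log2 difference 0.33, SE 0.07, edgeR adjusted p = 0.00590). Kng1 is a near-identical paralog of Kng2, and reads could be split between them. In p16-3MR mice Kng2 was at 0.76, Kng1 at 0.70 and Klkb1, encoding prekallikrein, at 0.28 on the log2 scale, with none past the threshold.

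Of the clotting proteases, F11 (factor XI) had the largest positive sex difference in p16-3MR mice. GCV females had 113, 120 and 93.1 CPM and VEH females 62.6, 101 and 36.9 CPM. GCV males had 37.1, 26.7 and 52.4 CPM and VEH males 25.2, 36.8 and 42.0 CPM. All GCV females were above all males, and F VEH 29 alone among females lay within the male range. The log2 difference was 1.22 (SE 0.29, edgeR adjusted p = 0.189, DESeq2 adjusted p = 0.00305). In WT mice, where F11 was at 25.9 to 38.3 CPM in females and 26 to 35.7 CPM in males, the log2 difference was 0.12.

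All 8 procoagulant members were above 0 in p16-3MR mice and none passed edgeR's threshold: F7 (0.91) starts the extrinsic pathway with tissue factor, F5 (0.84) and F10 (0.71) form prothrombinase, F2 (0.54) is prothrombin, F13b (0.40) carries the fibrin-crosslinking factor XIII, F12 (0.37) starts the contact pathway and F9 (0.36) activates factor X. In WT mice F13b was at 0.25 (SE 0.09, edgeR adjusted p = 0.118), F10 at 0.12 and F12 at -0.04. The 3 fibrinogen chains, Fga, Fgb and Fgg, which lie next to one another on chromosome 3, were at 0.49, 0.47 and 0.43 in p16-3MR mice. Fga was at 12300, 1560 and 4070 CPM in GCV females, 4640, 9060 and 5090 in VEH females, 7210, 1580 and 6810 in GCV males and 2130, 3930 and 4970 in VEH males. F GCV 31 and F VEH 28 were the highest 2 livers and F GCV 33 and M GCV 32 the lowest. The chains followed one another over the 12 livers (Pearson r 0.94 to 0.99, across livers that also differed in hepatocyte markers, as given above). The sum of 8 acute-phase genes, the group to which fibrinogen belongs, was 60800 CPM in F GCV 31, 24500 in M GCV 34 and 18200 in F VEH 28, with 3380 to 10100 in the other 9, and its part in the fibrinogen levels was not tested.

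Among anticoagulants, Serpina10, which inhibits factor X together with protein Z, was at 1.14 (SE 0.48, edgeR adjusted p = 0.685) in p16-3MR, or 0.72 without F GCV 31, and -0.15 in WT mice. Proz (protein Z) was at 0.53 and 0.10, Serpinc1 (antithrombin) at 0.30 and 0.16 (WT SE 0.06, edgeR adjusted p = 0.141), and Serpind1 (heparin cofactor II) at 0.40 and 0.03. Pros1 (protein S) was at -0.40 and Proc (protein C) at 0.21 in p16-3MR. The Pros1 level was 3.09 CPM in F GCV 33, 27.5 to 59 CPM in the other females and 33.9 to 64 CPM in males. Of the fibrinolysis genes, Serpinf2, encoding the plasmin inhibitor, was at 0.57 in p16-3MR and 0.23 in WT (SE 0.08, edgeR adjusted p = 0.0775), and it passed the WT test without M GCV 1 (adjusted p = 0.0413) or M VEH 1 (adjusted p = 0.00784). Plg (plasminogen) was at 0.56, Cpb2, the carboxypeptidase that protects fibrin, at 0.14 and Hrg (histidine-rich glycoprotein) at 0.12 in p16-3MR.

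In p16-3MR mice 35 of 41 members were above 0, against 44.2% of all genes, and the median log2 difference was 0.38 against -0.07 for all genes. Of the genes with a mean of at least 100 counts, 2900 of 5479 were above 0, with a median of 0.02. Outside the terminal pathway 34 of 36 members were above 0, with a median of 0.40. In the same contrast 8 of 10 hepatocyte markers were above 0, with a median of 0.76. All 8 Kupffer cell and macrophage markers were below 0, with a median of -1.72. Among the members, 12 of 41 did not overlap between the sexes within VEH livers (9.34% of all genes). Of these, 8 were higher in females (4.22% of all genes): Mbl2, C3, Cfb, Cfi, F7, Kng1, Kng2 and Serpina10. The other 4 (5.13% of all genes) were lower: C6, C8a, C8b and C9. Within GCV livers 5 did not overlap (8.25%), with C6 lower and Masp1, F10, F11 and F12 higher. The sum of 8 acute-phase genes was 6170 to 18200 CPM in VEH females and 3380 to 4740 CPM in VEH males, and it overlapped between the sexes with GCV. Its part in these differences was not tested. The edgeR test on VEH livers alone called 0 members (0.12% of all genes), with 4 at an unadjusted p below 0.05 (2.74%), and DESeq2 called C6 (0.455%). On GCV livers alone edgeR called 0 (0.0965%), with 4 at an unadjusted p below 0.05 (8.41%), and DESeq2 called 3, C6, C8a and F11 (0.602%). The members under that unadjusted p were C6, C8a, C8b and F11 in each treatment. The hepatocyte marker sum was also higher in every female (86200 to 160000 CPM) than in every male (24000 to 86000 CPM). Its part in the members' differences was not tested. The members' values share the 2 male livers with the lowest hepatocyte markers, M GCV 32 and M VEH 24. Without these and F GCV 33, 26 members were above 0 and the median was 0.23. Without M GCV 32 alone it was 26 members and a median of 0.17, and the median was 0.23 without F GCV 31, 0.23 without F GCV 35 and 0.61 without M GCV 34. With the 3 livers left out, only Mbl2 and C3 were higher in every female than in every male (0.906% of all genes).

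**Figure D3:**
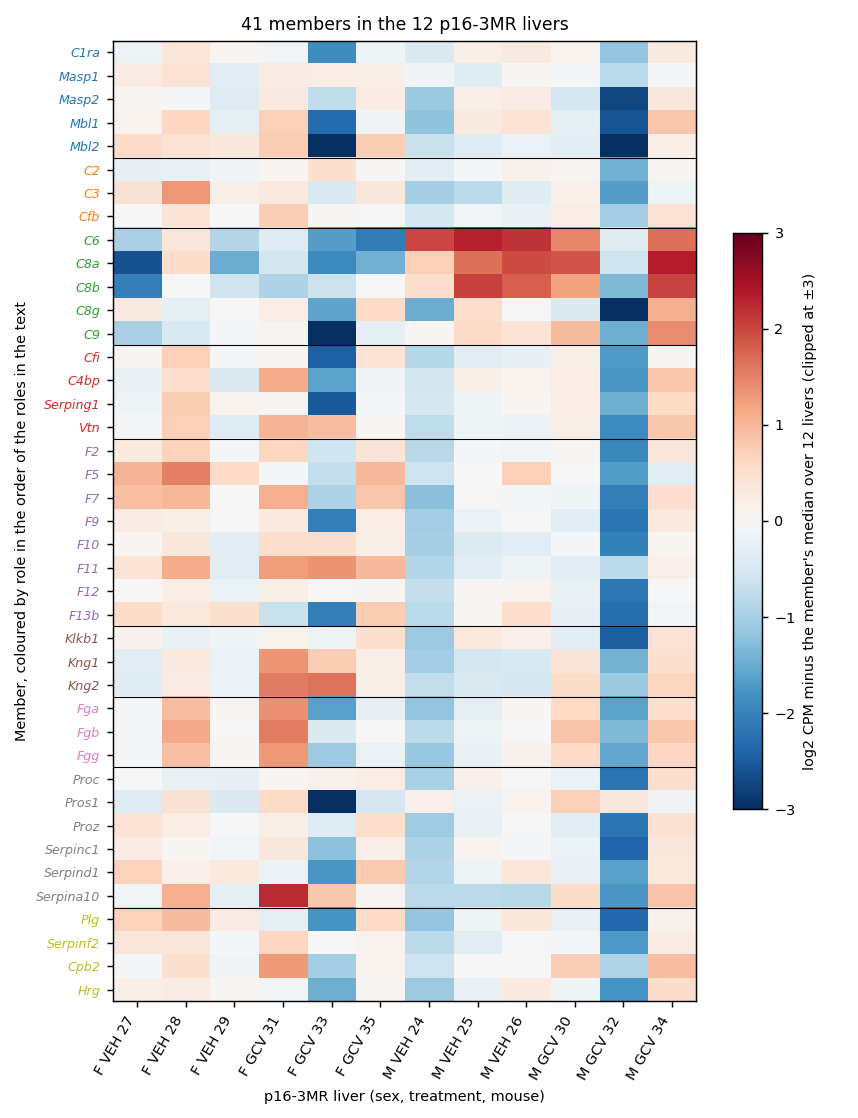
Log2 CPM of each member in each liver of the p16-3MR table relative to that member's median over the 12 livers (colour, clipped at 3 units), with the 41 members ordered by role (rows) and the livers by sex and treatment (columns). M GCV 32 was the lowest liver for 29 of 41 members, and C6, C8a and C8b are high in the other males.

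**Figure D4:**
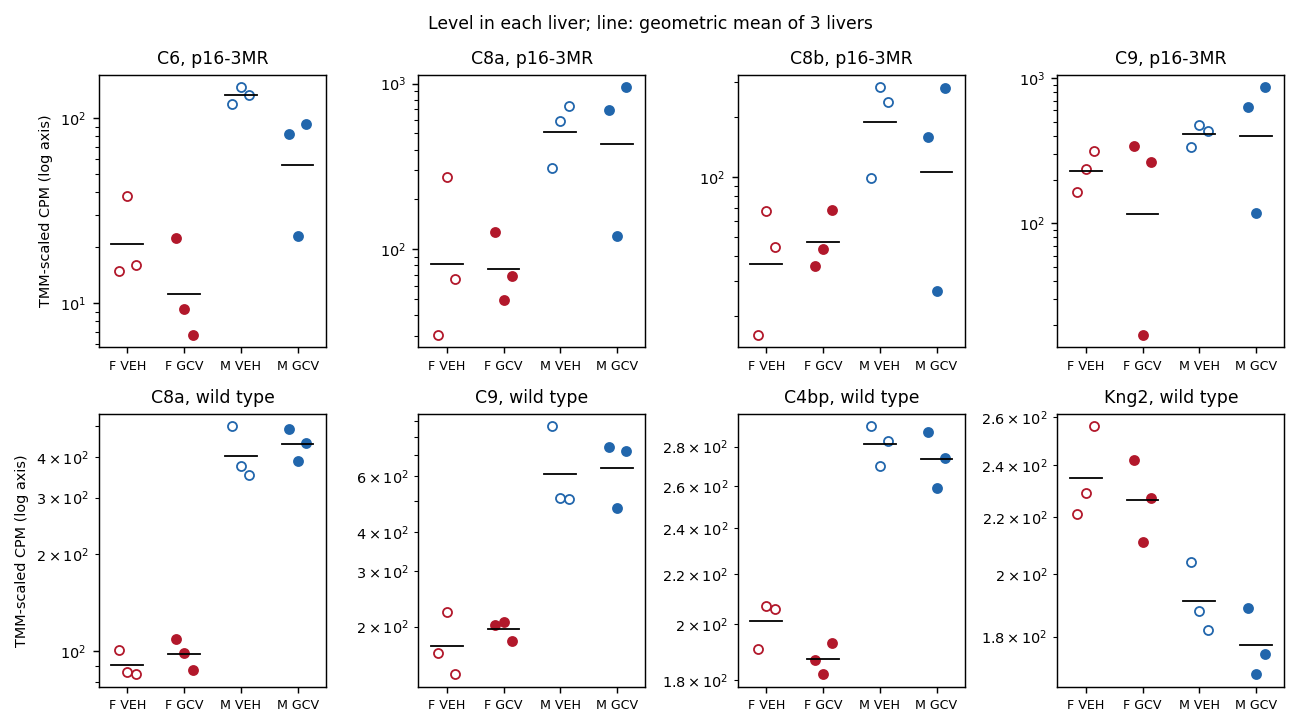
Levels in CPM on a log axis in each liver (points, with a line at the geometric mean of 3 livers) by sex and treatment, for C6, C8a, C8b and C9 in p16-3MR and C8a, C9, C4bp and Kng2 in WT mice. C8a is at 84.6 to 109 CPM in WT females and 353 to 500 CPM in WT males, and C6 at 6.71 to 38.2 CPM in p16-3MR females and 23.0 to 148 CPM in p16-3MR males.

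In WT mice the members most like C8a over the 12 livers were C9 (Pearson r of log2 CPM 0.975), C4bp (0.959) and C1ra (0.949), values that share the sex difference. Within the 6 males they were 0.93, 0.57 and 0.87, and within the 6 females 0.29, -0.77 and -0.25. For C9 the nearest members after C8a were C4bp (0.944) and C1ra (0.940), with 0.74 and 0.79 within males and -0.31 and -0.22 within females. For C4bp and C1ra, r was 0.954, with 0.50 within males and 0.72 within females. These are descriptions over livers that share a batch number in the labels.

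Within single treatments the WT edgeR calls of C8a, C9 and C4bp remained and those of Kng2 and C1ra were lost. With VEH livers alone, 3 members were called, all lower in females (3.82% of all genes called in either direction): C8a at -2.18, C9 at -1.84 and C4bp at -0.48. With GCV livers alone the same 3 were called (3.24%), at -2.17, -1.72 and -0.55. Kng2 was at 0.30 with VEH (edgeR adjusted p = 0.133) and 0.35 with GCV (adjusted p = 0.0671), and C1ra at -0.21 (adjusted p = 0.273) and -0.26 (adjusted p = 0.187), close to their values over both treatments. DESeq2 called the same 3 with VEH (4.49% of all genes) and 4, with Kng2, with GCV (3.8%). Without overlap between the sexes were 5 of 16 members with VEH (18.5% of all genes), the 5 called over both treatments, and 9 with GCV (18.4%), these 5 with F10, F13b, Serpinc1 and Serpinf2.

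The second question was whether GCV changed the members within a sex. No member passed the edgeR test in either sex of either genotype. In p16-3MR females 0 of 41 were called, as were 0% of all genes, with 1 of 41 at an unadjusted p below 0.05 (7.37% of all genes), and DESeq2 called 0 of 41 (0.395%). In p16-3MR males edgeR called 0 of 41 (0% of all genes), with 0 at an unadjusted p below 0.05 (1.91%), and DESeq2 called 0 (0.023%). In WT females edgeR called 0 of 16 (0.00791%), with 0 at an unadjusted p below 0.05 (4.56%), and DESeq2 called 0 (0.134%). In WT males edgeR called 0 of 16 (0%), with 0 at an unadjusted p below 0.05 (5.06%), and DESeq2 called 0 (0.00791%). The precision differed between tables: SEs of the members' log2 differences were 0.36 to 0.88 in p16-3MR and 0.09 to 0.19 in WT mice. Members' median differences were -0.06 in females and 0.06 in males of p16-3MR, and -0.05 and -0.02 in WT. With single livers left out the p16-3MR medians ranged from -0.48 to 0.17 in females and from -0.41 to 0.44 in males, on both sides of 0. The WT medians ranged from -0.06 (without F VEH 4) to -0.0015 (without F GCV 5) in females and from -0.07 (without M VEH 2) to 0.06 (without M VEH 1) in males.

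Values in each liver are given for the 3 members with the lowest p in each contrast. In p16-3MR females, Kng2 was at 1350, 1430 and 518 CPM with GCV and 356, 542 and 406 CPM with VEH. F GCV 35 lay within the VEH range and the other 2 GCV livers above it. The log2 difference was 1.34 (SE 0.56, edgeR adjusted p = 0.667). F11, with the values given above, was at 0.70 (SE 0.41, adjusted p = 0.685), with F VEH 28 above F GCV 35. F5 was at 328, 208 and 668 CPM with GCV and 699, 968 and 512 CPM with VEH, a difference of -0.86 (SE 0.59, adjusted p = 0.729) with F GCV 35 inside the VEH range. Single livers moved both: F11 was at 0.36 without F VEH 29 and 1.07 without F VEH 28, and F5 at -1.44 without F GCV 35. Without F GCV 33, F5 was at -0.61 and Kng2 at 1.04. Without overlap between GCV and VEH females were 3 of 41 members (13.3% of all genes): C2 at 0.39, Proc at 0.29 and Hrg at -0.52.

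In p16-3MR males, C6 was lower in all GCV livers than in all VEH livers (values above), the single member without overlap (6.40% of all genes), with a log2 difference of -1.02 (SE 0.56, edgeR adjusted p = 1). Without M GCV 32 it was -0.65. Serpina10 was at 266, 54.1 and 333 CPM with GCV and at 104, 104 and 103 CPM with VEH. M GCV 32 was below the VEH livers and the other 2 above them. The difference was 1.08 (SE 0.68, adjusted p = 1). Kng2 was at 669, 213 and 712 CPM with GCV and at 274, 339 and 327 CPM with VEH, in the same order of livers, with a difference of 0.76 (SE 0.55, adjusted p = 1). Without M GCV 34 the difference was 0.63 for Serpina10 and 0.49 for Kng2, and without M GCV 32 it was 1.5 and 1.11.

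In WT females the lowest p values belonged to C4bp at -0.10 (SE 0.10), F11 at -0.14 (SE 0.16) and F13b at 0.12 (SE 0.13), all with an edgeR adjusted p of 1. F11 was at 34.1, 25.9 and 37.0 CPM with GCV and 36.3, 33.4 and 38.3 CPM with VEH. F13b was at 94.2, 95.8 and 77.9 CPM with GCV and 98.0, 71.7 and 76.6 CPM with VEH. Both overlapped between treatments. In WT males they were F11 at 0.20 (SE 0.16, adjusted p = 0.905), Kng2 at -0.11 (SE 0.10, adjusted p = 0.914) and C8a at 0.11 (SE 0.13, adjusted p = 0.918). F11 was at 34.3, 34.1 and 32.7 CPM in GCV males and 35.7, 26 and 26.9 CPM in VEH males, so that M VEH 1 exceeded every GCV male. No WT member was without overlap in either sex, against 10% of all genes in females and 8.85% in males. With single livers left out, F11 ranged from -0.26 (without F GCV 6) to -0.02 (without F GCV 5) in females and from 0.11 (without M VEH 2) to 0.35 (without M VEH 1) in males, F13b from 0.03 (without F VEH 5) to 0.27 (without F VEH 4), C8a in males from 0.01 (without M VEH 3) to 0.27 (without M VEH 1), and Kng2 in males from -0.16 (without M GCV 1) to -0.06 (without M VEH 1).

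**Figure D5:**
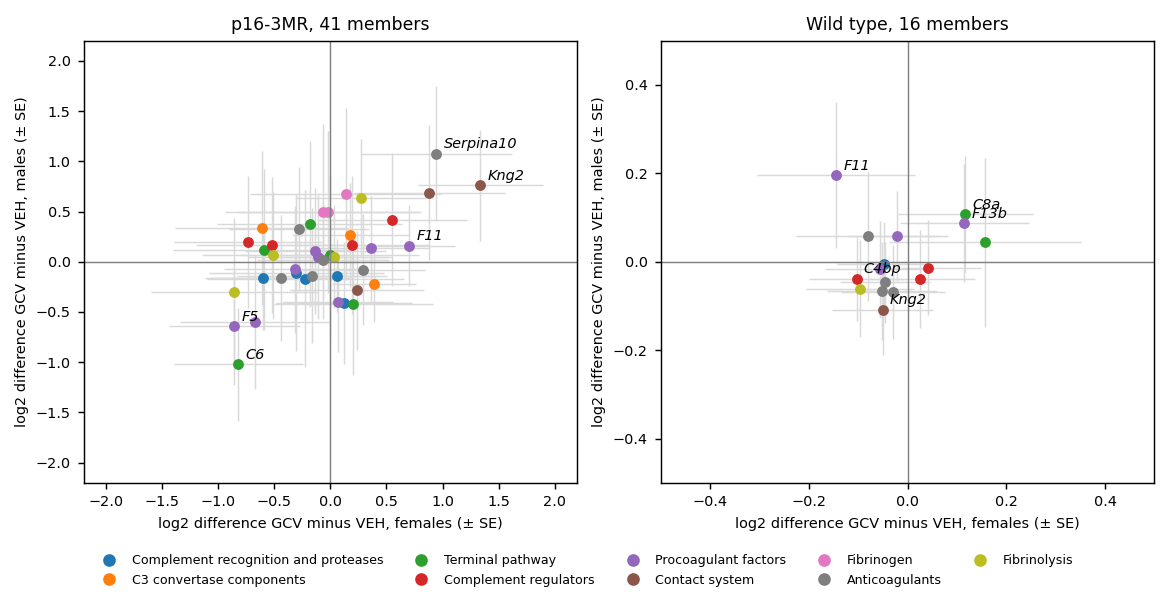
Log2 difference between GCV and VEH in females (horizontal axis) and in males (vertical axis) for each member with bars of 1 SE, in p16-3MR (41) and WT (16) mice, with no member called in either sex. Members of the p16-3MR table spread from -0.86 to 1.34 in females and -1.02 to 1.08 in males, and those of the WT table from -0.14 to 0.16 and -0.11 to 0.20.

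The third question was whether the GCV response differed between the sexes, tested as the interaction. In p16-3MR mice 0 of 41 members passed edgeR's test (0% of all genes), with 0 at an unadjusted p below 0.05 (3.78%) and 0 by DESeq2 (0.0138%). In WT mice 0 of 16 passed (0.00791%), with 0 at an unadjusted p below 0.05 (4.45%) and 0 by DESeq2 (0.00791%). The members with the lowest p in p16-3MR were C2, Serping1 and F11, at 0.61 (SE 0.53), -0.93 (SE 0.93) and 0.54 (SE 0.57), the first with an edgeR adjusted p of 0.989. C2, a convertase protease, was at 33.2, 44.8 and 32.5 CPM in GCV females, 26.8, 27.5 and 29.6 in VEH females, 33.8, 11.6 and 33 in GCV males and 25.4, 31.3 and 34.7 in VEH males. Only M GCV 32 lay far from the others. Serping1 was at 497, 81.9 and 460 CPM in GCV females, 424, 794 and 511 in VEH females, 546, 171 and 712 in GCV males and 331, 433 and 484 in VEH males, with F GCV 33 and M GCV 32 lowest. Both livers stood apart in the other measures given above. With single livers left out, C2 lay between 0.22 (without M GCV 32) and 0.84, Serping1 between -1.34 and -0.52 (without M GCV 34, or F GCV 33) and F11 between 0.24 (without F VEH 29) and 0.94 (without F VEH 28). C2 was at 0.40 without F GCV 33, and F11 at 0.31 without M GCV 32 and 0.82 without M GCV 34.

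In WT mice the interaction was -0.34 for F11 (SE 0.23, edgeR adjusted p = 0.982), -0.14 for Serpina10 (SE 0.21, adjusted p = 0.997) and -0.08 for F10 (SE 0.14, adjusted p = 1). Serpina10 was at 162, 152 and 149 CPM in GCV females, 169, 161 and 159 in VEH females, 203, 141 and 193 in GCV males and 218, 137 and 161 in VEH males. F10 was at 453, 421 and 426 CPM in GCV females, 421, 441 and 458 in VEH females, 419, 394 and 413 in GCV males and 444, 386 and 348 in VEH males. For both genes GCV and VEH livers overlapped within each sex, and the males were more spread out than the females. With GCV every female lay above every male for F10. With single livers left out, Serpina10 ranged from -0.34 (without M VEH 1) to 0.0016 (without M VEH 2), F10 from -0.17 (without M VEH 1) to 0.0020 (without M VEH 3) and F11 from -0.49 to -0.21 (without F GCV 5).

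Other genes of the same pathways were read for comparison, from lists of 35 complement and 38 coagulation genes and 18 transcription factors of the hepatocyte and its growth hormone response. In the WT sex contrast, where 7.94% of all genes were called (4.05% lower and 3.89% higher in females), 2 of 18 measurable complement genes were called, both lower in females. Cfd, the factor D protease made mainly by fat cells, had 2 counts over the 6 females and 157 over the 6 males (log2 difference -5.48, edgeR adjusted p = 0.000115, a fitted value that depends on the prior count). Cfhr2, a factor H relative, was at -0.26 (adjusted p = 0.0299). Of 28 measurable coagulation genes 4 were higher and 2 lower in females. Gas6, a vitamin K-dependent ligand, was at 1.32 (adjusted p = 2.73e-06), Itih2 and Itih1, inter-alpha-inhibitor chains, at 0.47 (adjusted p = 3.25e-05) and 0.30 (adjusted p = 0.00902), and Hgfac at 0.33 (adjusted p = 0.00576). Serpina1c and Serpina1a were at -0.72 (adjusted p = 1.43e-07) and -0.30 (adjusted p = 0.00856), although near-identical Serpina1 copies may share reads. Of 13 measurable transcription factors 3 were called, all higher in females, Cux2 at 5.43 (adjusted p = 6.16e-08), Trim24 at 1.84 (adjusted p = 5.46e-10) and Foxa2 at 0.47 (adjusted p = 0.0181).

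In p16-3MR mice none of the 34 complement and 38 coagulation genes read there was called in the sex contrast. Of 18 transcription factors 2 were, both higher in females (0.303% of all genes were called, 0.188% higher): Cux2 at 4.95 (edgeR adjusted p = 0.0107) and Trim24 at 1.48 (adjusted p = 0.0187). Hc, which encodes C5 and precedes C6 in the terminal pathway, had a log2 difference of 0.25 (SE 0.49), and C7 was near the detection floor with 0 to 11 counts per liver. For GCV, none of the listed pathway genes was called in either table by edgeR.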

How the data were processed

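Libraries from 24 livers were made by 3′-end sequencing (Smart-3SEQ). Per the labels and published methods, the authors trimmed reads (Trim Galore 0.6.10; FastQC 0.11.9), estimated transcript abundance with Salmon 1.10.3 against a pre-built mouse index (mm10), summarised it to genes with tximport, dropped those under 3 reads and tested with DESeq2. The authors deposited expected counts per gene in whole numbers, 1 table per genotype. Counts from 3′ ends are not divided by length, so levels are compared between samples and not between genes. Of 21755 p16-3MR identifiers, 21698 matched a symbol. The WT labels lack 9 lower-case letters: 10496 of 12643 matched one symbol, 2067 several and 80 none.

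Each table was fitted with edgeR 4.0.16 (TMM, quasi-likelihood, one mean per group of 3, no covariate) in R 4.3.3, with p-values adjusted by Benjamini-Hochberg across the whole table and calls at adjusted p below 0.05. Log2 CPM used a prior count of 2. Alternatives were DESeq2 1.42.0, its size factors within edgeR, limma-voom with quality weights (limma 3.58.1), filtering of low counts, exclusion of mitochondrial genes, single treatments or sexes, a replicate block and leaving out livers. The 41 members and all gene lists were chosen with earlier results of these data known. Values per liver were printed for called members and, in the treatment and interaction contrasts, for the 3 with the lowest p among members with a mean of at least 10 counts. Promoters were trimmed to bases upstream of the start, and the 5 printed hold no exon bases of their own gene. The script was tested on simulated counts. Figures were drawn with matplotlib 3.10.9.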

Additional observations from a re-analysis of the deposited data

How the results depend on the processing

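In p16-3MR mice the number of members called between the sexes was 1 in the reported fit (0.303% of all genes), 4 with DESeq2 (0.919%), 4 with limma-voom (0.988%) and 0 with VEH or GCV livers alone (0.12% and 0.0965%). It was 1 without F GCV 33 and M GCV 32 (0.391%) and 3 without F GCV 33, M GCV 32 and M VEH 24 (0.818%), both chosen after seeing the data. Leaving out single livers gave 0 to 3 (0.23 to 0.354% of all genes): 0 without F GCV 33, F GCV 35, F VEH 27, F VEH 29, M GCV 30 or M VEH 25, 2 without F VEH 28 and 3 without M GCV 32. In WT mice it was 5 (7.94%), with 3 in VEH or GCV livers alone (3.82% and 3.24%), 7 with limma-voom (9.14%) and 4 to 5 when livers were left out (6.23 to 9.94%). C8a, C9, C4bp and Kng2 passed in 12 of 12 such fits, C1ra in 3 and Serpinf2 in 2. All GCV contrasts and interactions kept 0 members called under the alternatives that were run, and of the 3 members followed in each of these contrasts 2 values changed sign, the WT interactions of Serpina10 (-0.34 to 0.0016 with livers left out, positive without M VEH 2) and F10 (-0.17 to 0.0020, positive without M VEH 3). The GCV medians given above also changed sign with single livers left out, except in WT females. With a replicate block, WT members called stayed at 0, with medians of -0.05 in females and -0.01 in males, while calls over all genes went from 1, 0 and 1 to 106, 68 and 79. Whether same-numbered WT livers were paired cannot be told from the labels, which give only the number. Correlations of their deviations were -0.045, -0.057 and 0.0018 in females and 0.196, 0.283 and -0.066 in males. Between differently numbered livers they ranged from -0.045 to 0.085 in females and from -0.349 to 0.170 in males. The p16-3MR groups, and the sexes in either table, share no numbers, and no block was fitted there. The cause of these changes was not tested. The lowest member count in a liver was 4 in p16-3MR and 90 in WT, and the biological coefficient of variation was 55.8% and 16.6%.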
